A study of Mus musculus with 74 samples.

Results

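Satellite glia are the small glial cells that wrap the cell bodies of sensory neurons in the dorsal root ganglion (DRG). Of the 53379 genes counted, 10 that mark these cells or their lineage are described here: Fabp7, Apoe, Glul, Gfap, Gja1, Sox10, Sox2, Slc1a3, Cdh19 and Vim. They were chosen by name, with earlier results of these data known. All 10 were found in the counts and all 10 passed the filter on low counts in every comparison, with the exception that Gfap had reads in only 4 of the 66 libraries of sorted cells.

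L4 DRG were sequenced whole from 4 uninjured mice and from 4 mice 1 day (1d) after spinal cord injury (SCI), which the labels call a dorsal hemisection at T9/10 and the methods describe as a cut of the dorsal column. These were wild type C57BL/6 females of 10 to 12 weeks, with 1 library per mouse. Dissociated L4 DRG of Thy1YFP16 females of 10 to 20 weeks were sorted for YFP+ cells, a transgene under the Thy1 promoter that marks large ascending sensory neurons. About 100 cells were taken per well and 3 wells per mouse. They came from 6 naive mice and from 4 mice each at 1d and 3d after SCI or after sciatic nerve injury (SNI, a crush). Naive mice carry 1d or 3d in their titles and were pooled, so each injury day was compared with naive mice of both days. The genotype field of the sorted samples counts upwards from Thy1YFP16 from sample to sample, so the strain field is used here. Sorted libraries came in 2 sets, told apart by a year that only 1 of them carries in its titles. Reads counted on genes were 21959030 to 44493319 per mouse in whole DRG, 30518187 to 83599972 per mouse in sorted cells and 1494217 to 49015375 per well. Libraries of SNI and DLK knockout whole DRG were not used here.

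The sort selected a transgene driven by the neuronal Thy1 promoter, so each well was first compared with lists of cell type markers. The summed level of 10 neuron genes had a median of 33408 CPM over the 66 wells, where CPM is the reads on a gene scaled to the reads on all genes of that library, the same total for each. In 16 wells this sum was under 0.1 of that of the median well, at 90.5 to 1408 CPM, and these are called wells low in neuron genes below. The sum of 10 Schwann cell myelin genes was 26093 to 141995 CPM in those 16 wells and had a median of 4301 CPM in the other 50. They occurred in every group, with 6 of 18 wells in naive mice, 3 of 12 at 1d and 1 of 12 at 3d after SNI, and 3 of 12 at each time after SCI. Results in sorted cells are therefore given with and without them where they changed.

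The 10 genes cover distinct parts of satellite glia biology. Glul encodes glutamine synthetase, which turns glutamate taken up by the transporter of Slc1a3 (GLAST) into glutamine, and Gja1 encodes connexin 43, a gap junction protein that couples neighbouring glia. Fabp7 is a fatty acid binding protein of glial precursors and satellite glia, and Apoe is a lipid carrier that glia secrete. Sox10 is the transcription factor of the peripheral glial lineage, which satellite glia share with Schwann cells, Sox2 is a factor of immature glia, and Cdh19 is a cadherin of the same lineage. Gfap and Vim are intermediate filaments. Gfap is widely used as a sign of reactive satellite glia after nerve injury.

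In uninjured whole DRG the genes spanned a wide range of levels. Per kilobase of exon, Apoe was the most abundant at 1569 ± 75.4 CPM per kb (SD, n = 4). Fabp7 followed at 191 ± 82.9, Glul at 136 ± 5.43 and Vim at 115 ± 9.01 CPM per kb. Fabp7 could not be ranked against Glul or Vim, because its 4 mice ran from 79.6 to 269 CPM per kb, whereas Glul at 130 to 142 lay above Vim at 104 to 126 in every mouse. Cdh19 at 23.7 ± 5.07 and Sox10 at 17.7 ± 0.9 CPM per kb overlapped, with Sox2 next at 11.6 ± 0.604. Gja1 at 2.58 ± 0.161 and Slc1a3 at 2.29 ± 0.17 CPM per kb overlapped too. Gfap came last at 0.26 ± 0.106 CPM per kb. The gene used as a sign of reactive glia was thus the least abundant of the 10 in uninjured ganglia, with 13 to 64 reads per mouse.

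**Figure D1:**
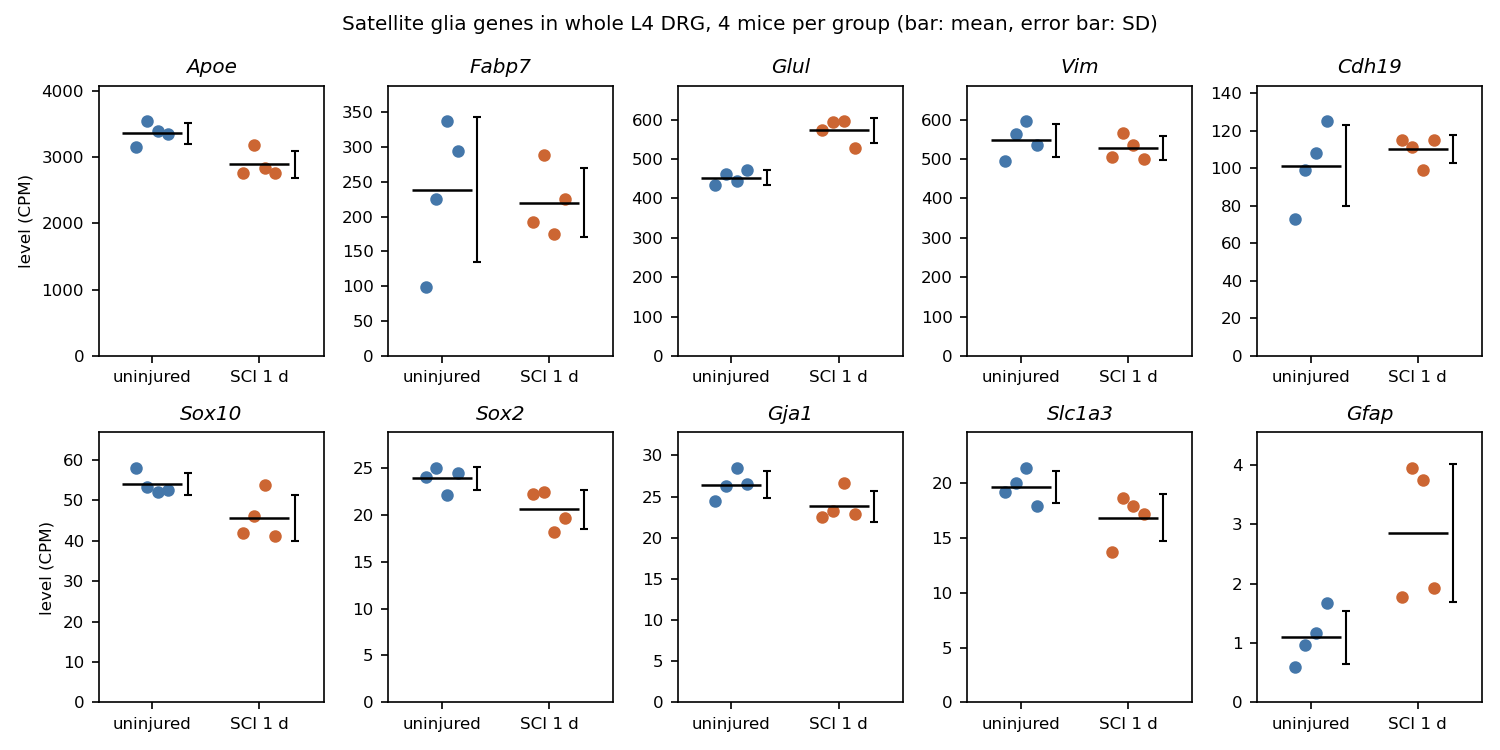
Level of each gene in whole L4 DRG in CPM on linear axes that start at 0, with 1 point per mouse, the mean as a bar and the SD as an error bar, for 4 uninjured mice and 4 mice 1d after SCI. The groups are separate for Glul and Gfap and overlap for the other 8 genes.

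Glul and Gfap rose in whole DRG at 1d after SCI. The genes lie at chr1:153899944-153909723 (+) and chr11:102887336-102900912 (-) on GRCm38. Glul was 433, 463, 443 and 473 CPM in the 4 uninjured mice and 573, 594, 596 and 528 CPM in the 4 SCI mice. Every SCI mouse lay above every uninjured mouse. The log2 fold change was 0.32 ± 0.059 (SE) with an adjusted p of 0.0358 by edgeR's quasi-likelihood test over 17616 genes. Gfap was 0.592, 0.966, 1.16 and 1.67 CPM in uninjured mice and 1.78, 3.95, 3.75 and 1.93 CPM after SCI, again without overlap. Its log2 fold change was 1.34 ± 0.33 (SE) with an adjusted p of 0.0948, close to the threshold of 0.1, on 43 to 161 reads per SCI mouse. These 2 of 10 genes were called higher and none was called lower, where 1.38% of all tested genes were called higher. Groups that did not overlap were found upwards in 5.48% and downwards in 5.15% of all tested genes, and in 2 and 0 of the 10.

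Both calls depended on single mice by edgeR. DESeq2 with all mice kept also called both genes higher, but was not run with a mouse left out. Without uninjured replicate 2 or 3, or without SCI replicate 1 or 2, Glul had an adjusted p of 0.108 to 0.131 at a log2 fold change of 0.30 to 0.33. Gfap kept an adjusted p under 0.1 only when SCI replicate 4 was left out, and its log2 fold change lay between 1.16 and 1.61 in all 8 of these fits. Glul shares 209 of its 3323 exonic bases with exons of Teddm2 and Mir8114, so a part of its reads could not be assigned to it alone.

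The other 8 genes were not called by edgeR with all mice kept. With a mouse left out, Apoe and Sox10 were each called lower in 1 of 8 fits (adjusted p = 0.0858 and 0.0546, edgeR). Apoe was 3148, 3539, 3389 and 3343 CPM in uninjured mice and 2765, 3186, 2830 and 2765 CPM after SCI. Only SCI replicate 2 reached into the uninjured range, and the log2 fold change was −0.23 ± 0.061 (SE, adjusted p = 0.118, edgeR), whereas DESeq2 called it lower (adjusted p = 0.0182). Sox10 at −0.26, Slc1a3 at −0.24, Sox2 at −0.23 and Gja1 at −0.16 log2 fold change had adjusted p-values of 0.232, 0.328, 0.264 and 0.364 by edgeR. Fabp7 at −0.13, Vim at −0.07 and Cdh19 at 0.10 had adjusted p-values of 0.881, 0.678 and 0.779 by edgeR. Fabp7 varied most between mice of one group, from 99.5 CPM in uninjured replicate 1 to 337 CPM in replicate 3. In all, 7 of the 10 genes had a negative and 3 a positive log2 fold change, and 6 had an unadjusted p under 0.05 (Glul, Gfap, Apoe, Sox10, Sox2 and Slc1a3), as did 2570 of the 17616 genes tested. The median log2 fold change of the 10 was −0.15, against 0.01 over all tested genes. Fewer glial cells and less RNA per glial cell cannot be told apart in a whole ganglion.

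**Figure D2:**
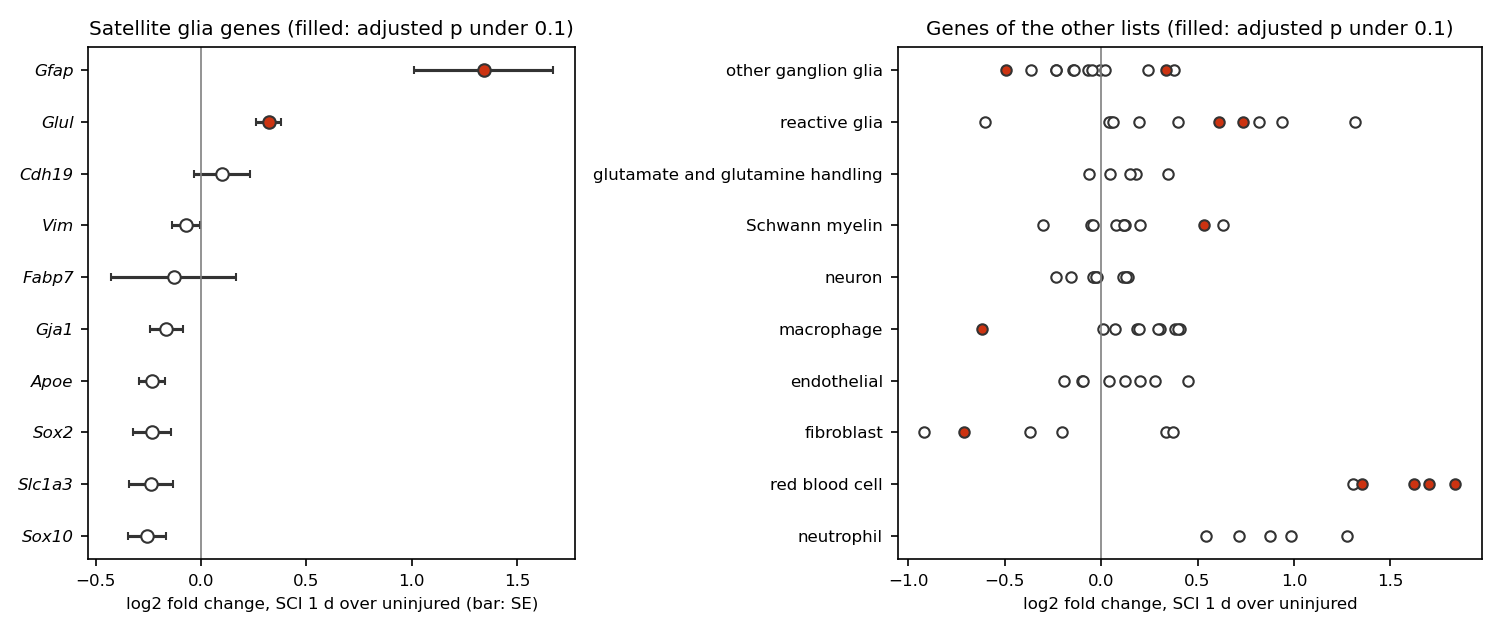
The left panel shows the log2 fold change of each gene between SCI 1d and uninjured whole DRG with its SE, and the right panel shows the same quantity without errors for genes of the other lists, with filled points for an adjusted p under 0.1. Gfap and Glul are the filled points on the left, and 8 of 11 filled points on the right lie above 0.

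Further genes of ganglion glia moved in both directions. Of 13 other genes of ganglion glia, Matn2, which encodes the matrix protein matrilin 2, rose (log2 fold change 0.34, adjusted p = 0.0579, edgeR). Ednrb, an endothelin receptor, fell (log2 fold change −0.49, adjusted p = 0.0358, edgeR), and 11 were not called. Of 11 genes of reactive glia, Serpina3n, a secreted protease inhibitor, and Osmr, the oncostatin M receptor, rose with log2 fold changes of 0.74 and 0.61 (adjusted p = 0.00192 and 0.016, edgeR), and 9 were not called. The summed level of this reactive list was 609 to 693 CPM in uninjured mice and 812 to 840 CPM after SCI, without overlap. Serpina3n, already called, had means of 173 and 292 CPM, so much of this rise came from a single gene. The sum without Serpina3n was not tested. Of the 5 tested genes that handle glutamate and glutamine beside Glul and Slc1a3, none was called by edgeR, none had an unadjusted p under 0.05 and none was called by DESeq2.

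Red blood cell genes rose beside these genes, while other cell type lists had at most 1 call each. Of 5 red blood cell genes, 4 rose (Hbb-bs by the smallest adjusted p, at a log2 fold change of 1.84), and their summed level was 13.3 to 20.8 CPM in uninjured mice and 20.6 to 90.0 CPM after SCI. Of 10 Schwann cell myelin genes 1 rose (Ncmap, 0.54 on the log2 scale). Of 10 macrophage genes 1 was called lower (Cx3cr1, −0.62). The others had positive log2 fold changes not called by edgeR, with C1qa at 0.38, C1qb at 0.41 and C1qc at 0.30. Of 6 fibroblast genes 1 was called lower (Lum, −0.71). The others went in both directions and were not called by edgeR, with Dcn at 0.33 and Col3a1 at −0.92. None of 10 neuron, 8 endothelial and 5 neutrophil genes was called by edgeR or by DESeq2, with 0, 1 and 1 at an unadjusted p under 0.05. The summed level of the neuron list was 18594 to 20293 CPM in uninjured mice and 18492 to 19563 CPM after SCI. The part of blood or other cells in the values of Glul and Gfap was not tested.

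The promoter windows of Glul and Gfap are shown because these 2 genes were called higher after SCI. Each window holds 300 bases, most of them before the RefSeq start of the gene, on GRCm38.p6, on the strand of the gene, from chr1:153899679-153899978 (+) for Glul and chr11:102897151-102897450 (-) for Gfap. Capitals mark a TTCNNNGAA match, the palindrome that STAT factors bind, which 8.3% of 32851 such windows hold on either strand. Other letters searched on both strands were AGAACA, part of the glucocorticoid receptor motif, found in 19% of windows, and the SOX motifs ACAAAG and ACAATG, found in 18.7% and 12.6%.

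Glul: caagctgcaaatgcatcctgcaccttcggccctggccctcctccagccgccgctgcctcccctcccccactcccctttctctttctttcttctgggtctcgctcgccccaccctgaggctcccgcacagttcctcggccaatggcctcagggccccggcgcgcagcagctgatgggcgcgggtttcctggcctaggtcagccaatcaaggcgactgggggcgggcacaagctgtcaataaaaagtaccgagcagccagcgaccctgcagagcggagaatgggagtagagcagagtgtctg

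Gfap: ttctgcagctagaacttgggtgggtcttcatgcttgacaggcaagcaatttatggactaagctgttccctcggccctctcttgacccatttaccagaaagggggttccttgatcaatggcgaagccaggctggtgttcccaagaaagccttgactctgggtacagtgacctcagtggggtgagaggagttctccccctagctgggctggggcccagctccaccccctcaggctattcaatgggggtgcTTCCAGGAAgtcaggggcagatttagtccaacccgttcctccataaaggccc

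The Gfap window held 1 TTCNNNGAA match and none of the other letters, and the Glul window held none of them. The RefSeq start of Gfap in this window lies 3712 bases inside the longest GENCODE gene model.

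In sorted cells the same genes were compared well by well, because the wells differed widely in neuron and Schwann cell myelin genes. Glul was present in every well at 6.16 to 1023 CPM (median 115) and Vim in every well at 10.3 to 2727 CPM (median 129). Gfap had no read in 62 of 66 wells, where 3 reads would have been 0.0612 CPM in the deepest and 2.01 CPM in the shallowest well. Its highest values were 7.8 and 1.37 CPM in SNI 1d wells and 1.11 CPM in a naive well. The remaining genes were present in some wells and nearly absent in others. Taking 10 CPM as present, Fabp7 was present in 24 wells, Apoe in 27, Gja1 in 19, Slc1a3 in 15, Sox2 in 6, Sox10 in 31 and Cdh19 in 32 of 66.

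Wells of one mouse differed widely. For Fabp7 the SD of log2(CPM + 1) between the wells of a mouse was 2.84, and the SD between the means of the 22 mice was 2.67. Each mean is over 3 wells and the mice are of all groups, so these SDs are not like measures. All 3 wells held Fabp7 at 10 CPM or more in 3 mice, none did in 8 mice, and in 11 mice only some did. For Sox10 these SDs were 2.13 and 1.55, and for Vim 1.97 and 1.4. Glul was the steadiest of the genes present in most wells, with SDs of 1.2 and 0.823.

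**Figure D3:**
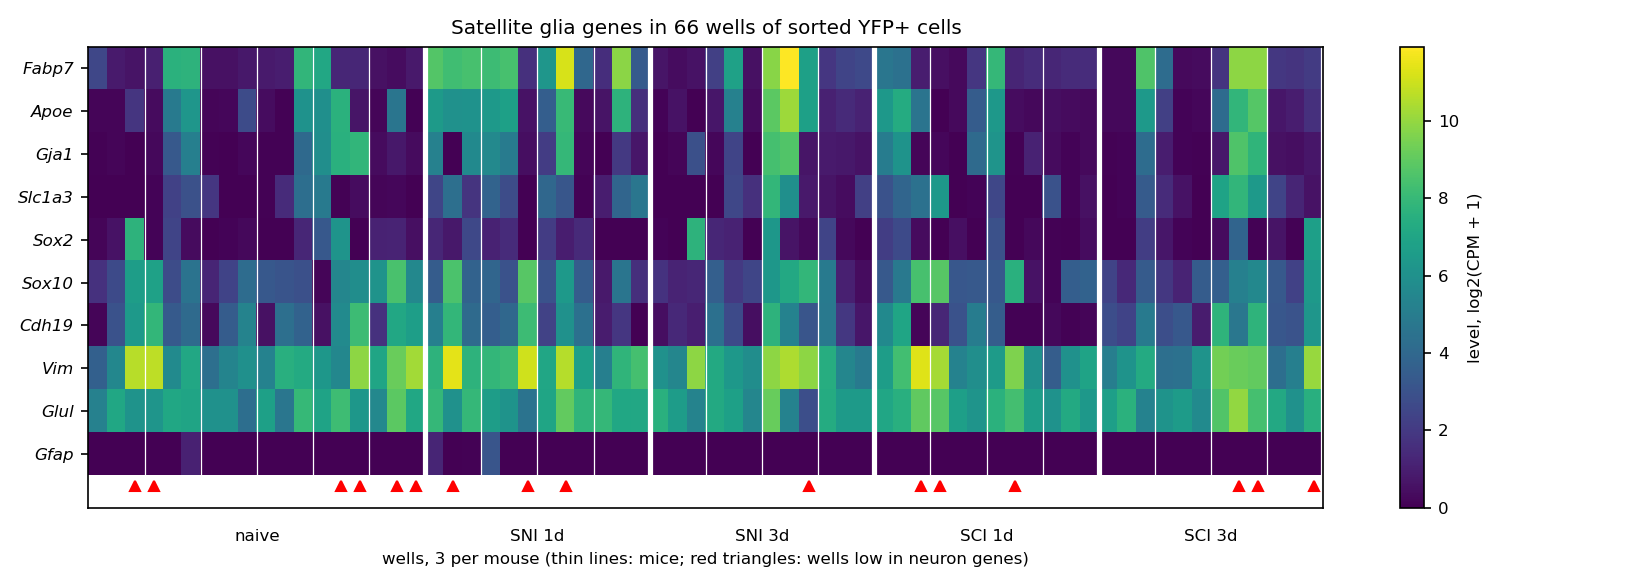
Level of each gene as log2(CPM + 1) in the 66 wells of sorted cells, in columns ordered by group and mouse with 3 wells per mouse, and red triangles under the 16 wells low in neuron genes. Fabp7, Apoe and Gja1 light up in the same columns, Sox10 and Vim are bright over most triangles, and Gfap is dark in 62 columns.

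The genes differed in how closely they followed each other over wells. Fabp7 and Apoe followed each other most closely (Pearson r = 0.872 over 66 wells on log2(CPM + 1)), followed by Apoe and Gja1 (0.806), Sox10 and Vim (0.803) and Fabp7 and Gja1 (0.737). Slc1a3 went with Apoe (0.671) and Fabp7 (0.665). In contrast, Fabp7 and Sox10 had an r of 0.164, Gja1 and Sox10 of 0.162 and Glul and Sox10 of 0.147. Over the 50 wells that were not low in neuron genes the contrast was smaller for Fabp7 and Gja1. There r was 0.424 for Fabp7 and Sox10, 0.452 for Gja1 and Sox10 and 0.533 for Fabp7 and Vim. Fabp7 and Apoe had an r of 0.924 and Sox10 and Vim of 0.599. Glul and Sox10 stayed low at an r of 0.0821. These are descriptions over wells that share mice in threes and whose levels are shares of 1 library. Fabp7 was present in 13 wells together with Sox10, in 11 wells without it, and Sox10 was present in 18 wells without Fabp7.

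The Sox10 and Vim pattern went with the wells low in neuron genes. Sox10 was 35.7 to 457 CPM (median 104) in those 16 wells and 0.0918 to 143 CPM (median 7.26) in the other 50. Vim was 45.4 to 2727 CPM (median 1143) against 10.3 to 1409 CPM (median 73.7). Cdh19 was present in 12 of the 16 and in 20 of the 50 wells. Fabp7 had a median of 1.42 CPM in the 16 wells and 2.75 CPM in the other 50, and was present in 5 of 16 and 19 of 50. Over all wells, r with the summed Schwann cell myelin genes was 0.792 for Sox10, 0.80 for Vim and 0.446 for Cdh19, and 0.00295 for Fabp7, 0.142 for Apoe, 0.126 for Gja1 and 0.101 for Slc1a3.

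Single wells show how far levels could part. Well c of SNI 1d replicate 2 held Sox10 at 457 CPM, Cdh19 at 288 CPM and Vim at 2139 CPM, with Fabp7 at 2.19 CPM, Apoe at 0.506 CPM and no read of Slc1a3. Well b of SNI 3d replicate 3 was not low in neuron genes and held the highest Fabp7 at 3861 CPM and the highest Apoe at 1136 CPM, with Gja1 at 411 CPM. Well b of naive replicate 5 held Apoe at 195 CPM, Gja1 at 190 CPM and Sox2 at 70.8 CPM, with Fabp7 at 1.45 CPM and Vim at only 45.4 CPM. These 3 wells were chosen after their values were seen.

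**Figure D4:**
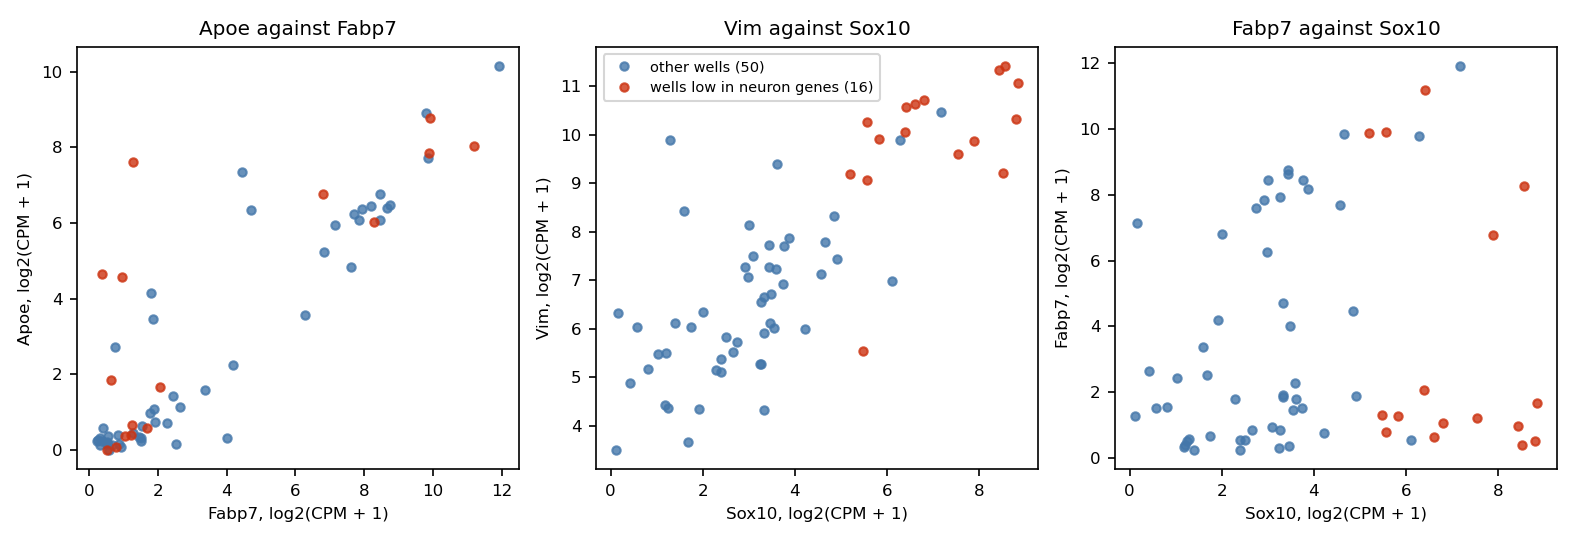
Levels of gene pairs as log2(CPM + 1) in the 66 wells, with 1 point per well and red points for the 16 wells low in neuron genes. Apoe rises with Fabp7 (r = 0.872) and Vim with Sox10 (r = 0.803), whereas Fabp7 against Sox10 (r = 0.164) scatters, with 11 red points at high Sox10 and low Fabp7.

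The promoter windows of Fabp7 and Apoe, the pair with the closest course over wells, are shown with the same motifs in capitals. They lie at chr10:57784673-57784972 (+) and chr7:19699139-19699438 (-) on GRCm38.p6 by RefSeq, and of 3 Apoe windows the 1 at the GENCODE gene start is given.

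Fabp7: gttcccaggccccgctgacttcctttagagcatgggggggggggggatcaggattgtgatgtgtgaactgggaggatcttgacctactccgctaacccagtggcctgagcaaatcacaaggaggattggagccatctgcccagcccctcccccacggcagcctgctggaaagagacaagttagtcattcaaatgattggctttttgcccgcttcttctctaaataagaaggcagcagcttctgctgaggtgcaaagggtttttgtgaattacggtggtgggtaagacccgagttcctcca

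Apoe: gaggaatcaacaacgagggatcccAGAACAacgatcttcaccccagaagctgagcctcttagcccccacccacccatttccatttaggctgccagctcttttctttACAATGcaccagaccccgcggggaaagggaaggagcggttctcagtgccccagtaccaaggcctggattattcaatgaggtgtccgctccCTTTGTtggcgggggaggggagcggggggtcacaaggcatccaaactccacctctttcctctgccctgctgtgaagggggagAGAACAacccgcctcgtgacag

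The Fabp7 window held none of the 4 motifs. The Apoe window held AGAACA 2 times and ACAAAG (on the other strand) and ACAATG once each, so the windows of this pair had no searched motif in common. Of the other genes with a window, Slc1a3 held TTCNNNGAA and AGAACA once each, Sox2 held ACAAAG once, and Gja1 and Vim held none. Sox10 and Cdh19 had no window in the table used.

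Genes outside the list that were most like it were searched for among 14188 of the 14225 genes that had 20 or more reads in 10 or more wells, leaving out the 10 themselves and genes with no symbol or one that is not unique, by r with the mean of the 10 standardized levels over 66 wells. Among the highest were Lpar1 (0.831), a lysophosphatidic acid receptor, Mmd2 (0.784), Fmo1 (0.754) and Ttyh1 (0.746). The lowest were Pigz (−0.622), AI854703 (−0.615), Psmg1 (−0.61), Tmem246 (−0.602) and Tmem74 (−0.599). Mmd2 was also on the list of other ganglion glia genes.

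With wells summed per mouse, none of the 10 genes was called after injury in sorted cells. This held for each injury at 1d and at 3d against naive mice (SNI, then SCI) and for SNI against SCI at 1d and at 3d, in edgeR's quasi-likelihood test with 2 RUVr factors over 23507 genes, and equally for DESeq2 with the same factors. An unadjusted p under 0.05 was reached by 1 of the 10 for SNI against SCI at 1d (Fabp7) and by 0 in the other 5 comparisons, by both tools. Of all genes tested for SNI against SCI at 1d, 2380 of 23507 reached it by edgeR, a share close to 1 in 10. Of all tested genes, 0.519% and 0.442% were called at 1d and 3d after SNI against naive mice, 0.0468% and 0.051% at 1d and 3d after SCI, and 0% in each comparison of SNI with SCI. Standard errors were wide: for SNI 1d against naive the log2 SE was 0.35 for Glul, 0.57 for Vim, 0.71 for Sox10 and 1.56 for Fabp7. A change of several fold in Fabp7 was therefore not detectable with these mice. Without the wells low in neuron genes, none of the 10 was called either. By edgeR an unadjusted p under 0.05 was then reached by 3 of 10 at each time after SNI against naive. It was reached by 1 for SCI 3d against naive, 1 for SNI against SCI at 3d and 0 elsewhere. Of 22770 genes, 3057, 3880, 3248 and 2455 reached it in that order. Positive log2 fold changes went from 2 to 9 of 10 for SNI 3d against naive, and from 2 to 8 for SNI against SCI at 3d.

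Fabp7, at chr10:57784881-57788450 (+) on GRCm38, was the gene that set SNI 1d apart by level. It was 381, 273, 724 and 232 CPM in the 4 SNI 1d mice. In naive mice it was 2.23, 171, 0.525, 66, 60.7 and 0.524 CPM, and after SCI 1d it was 19.1, 1.17, 79.8 and 1.66 CPM. Every SNI 1d mouse was above every naive and every SCI 1d mouse. Groups apart in this direction were found for 1 of 10 genes in each of these comparisons, and for 1.61% of all tested genes against naive and 2.9% against SCI 1d. The log2 fold change was 2.43 ± 1.56 against naive (SE, adjusted p = 0.519, edgeR) and 4.21 ± 1.92 against SCI 1d (SE, adjusted p = 0.487, edgeR). The summed Schwann cell myelin genes were 3658 to 32264 CPM in SNI 1d mice, 4133 to 72592 CPM in naive mice and 7805 to 45273 CPM in SCI 1d mice, and the summed macrophage genes were 2.88 to 273, 0.208 to 427 and 0.397 to 3.03 CPM. Of 10 macrophage genes, 7 had an unadjusted p under 0.05 for SNI 1d against SCI 1d and 5 against naive, with none called by edgeR and 3 and 4 called by DESeq2. Csf1r, a receptor of macrophages, and Cx3cr1, a chemokine receptor, had log2 differences of 6.44 and 9.02 against SCI 1d (adjusted p = 0.439 for each, edgeR), and 3 of the 10 genes were at 0 in all SCI 1d mice. The part of Schwann cell and macrophage genes in the result was not tested. The separation was lost without the wells low in neuron genes, when Fabp7 ran from 43.9 to 395 CPM in SNI 1d mice, to 198 CPM in naive mice and to 119 CPM in SCI 1d mice. Fabp7 was present in 9 of 12 wells of SNI 1d, and in 4 of 18 of naive, 4 of 12 of SNI 3d, 3 of 12 of SCI 1d and 4 of 12 of SCI 3d.

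At 3d after SNI the 4 mice had 0.464, 39.1, 1461 and 4.09 CPM of Fabp7, a range that enclosed the naive mice. The 4 SCI 3d mice had 197, 7.48, 632 and 2.79 CPM. High and low mice thus stood side by side in each group, and the mouse with the highest Fabp7 at 3d after SNI also had the highest Apoe (537 CPM), Gja1 (239 CPM), Sox10 (150 CPM), Sox2 (28.9 CPM) and Vim (1077 CPM) of all 22 mice.

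**Figure D5:**
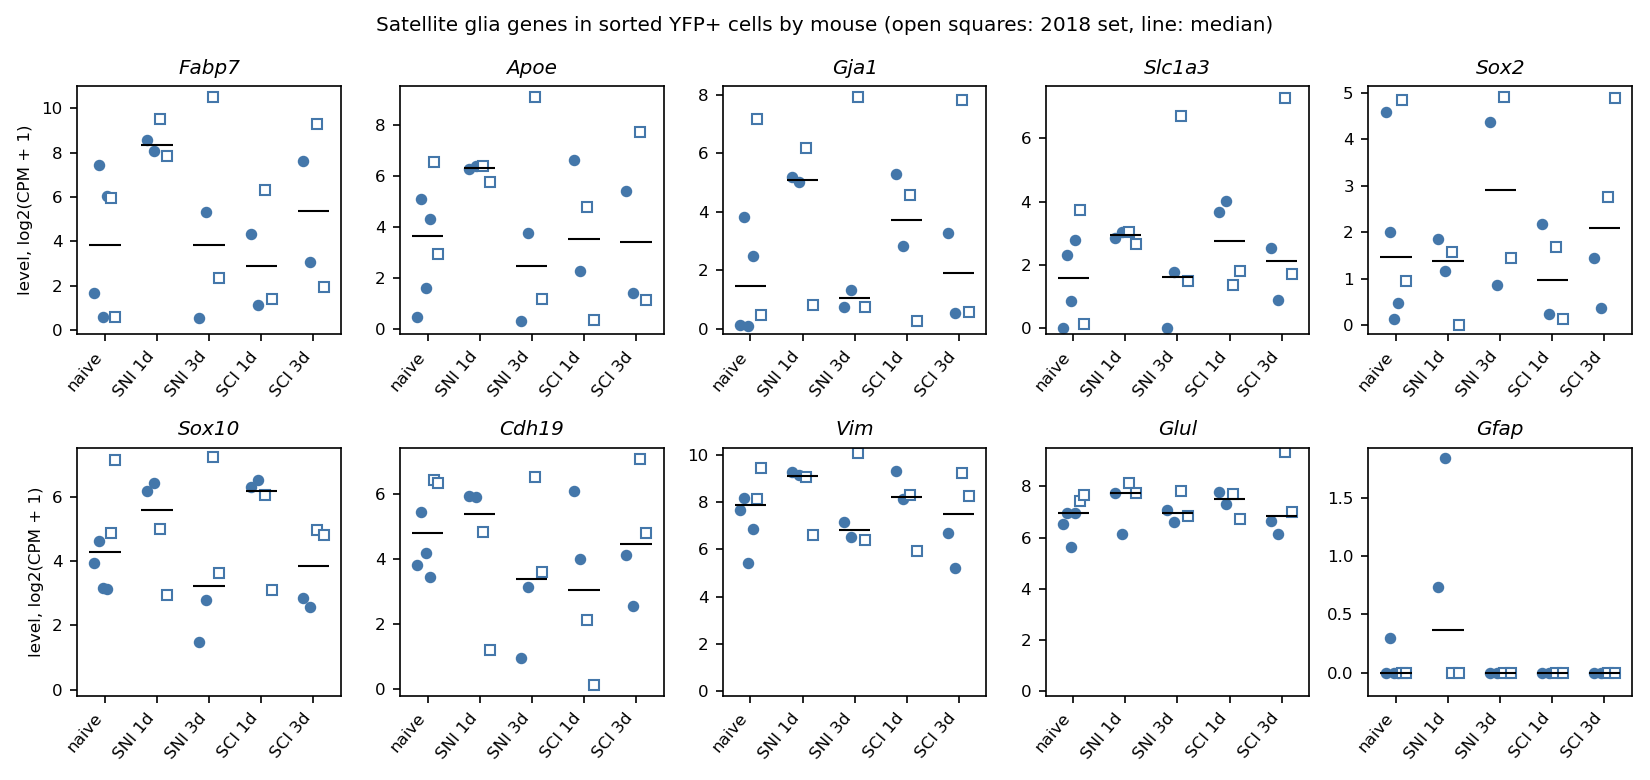
Level of each gene as log2(CPM + 1) in sorted cells with 3 wells summed per mouse, for 6 naive mice and 4 mice in each injury group, with open squares for the set with a year in its titles, filled circles for the other set and a line at the median. Fabp7 in SNI 1d is the panel in which 4 injured mice all lie above the 6 naive mice, and Gfap is 0 in 19 of 22 mice.

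The other genes overlapped between all injury groups and naive mice. Apoe was 53.0 to 82.9 CPM in SNI 1d mice and 0.391 to 92.1 CPM in naive mice, and Slc1a3 was 5.34 to 7.28 against 0 to 12.3 CPM. Without the wells low in neuron genes Apoe was 5.28 to 99.3 CPM in SNI 1d and 0.116 to 60.5 CPM in naive mice. Glul had medians of 124 CPM in naive, 214 in SNI 1d, 124 in SNI 3d, 182 in SCI 1d and 114 CPM in SCI 3d. Vim had medians of 240, 552, 116, 296 and 205 CPM in the same order, and Sox10 of 19.0, 50.7, 8.56, 71.8 and 16.7 CPM. Without the wells low in neuron genes the medians of Vim were 75.8, 163, 116, 68.8 and 69.7 CPM. Those of Sox10 were then 7.81, 9.13, 8.56, 8.11 and 6.4 CPM, close together, but single mice were not. Sox10 still ran from 0.124 to 68.4 CPM in naive mice and from 1.81 to 106 CPM in SNI 3d mice. Over all wells Cdh19 had medians of 29.9, 43.3, 9.5, 9.13 and 21.4 CPM, Gja1 of 2.47, 33.3, 1.09, 14.5 and 4.56 CPM, and Sox2 of 1.97, 1.63, 10.8, 1.2 and 3.74 CPM. Without those wells they were 7.1, 12.9, 9.5, 11.5 and 12.1 CPM for Cdh19, 2.41, 19.4, 1.09, 20.9 and 0.575 CPM for Gja1, and 0.813, 1.98, 10.8, 1.78 and 0.31 CPM for Sox2. Gfap had reads in 1 naive and 2 SNI 1d mice only.

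Besides Fabp7, the gene with the smallest unadjusted p among the 9 genes other than Gfap differed between comparisons. It was Glul for SNI 1d (log2 fold change 0.65 ± 0.35, SE, adjusted p = 0.415) and for SCI 3d (0.45 ± 0.35, adjusted p = 0.706) against naive. It was Cdh19 for SNI 3d (−1.46 ± 1.11, adjusted p = 0.593) and Sox10 for SCI 1d (1.39 ± 0.71, adjusted p = 0.481) against naive, all by edgeR. Without the wells low in neuron genes the log2 fold change of Cdh19 turned to 1.33 and that of Sox10 was 0.13. Between injuries it was Fabp7 at 1d and Cdh19 at 3d (−1.05 ± 1.16 for SNI over SCI, adjusted p = 0.826 by edgeR, and −0.01 without those wells). The rise of Glul that whole DRG showed at 1d after SCI was not called in sorted cells, where SCI 1d mice had 219, 156, 207 and 104 CPM against 48.5 to 204 CPM in naive mice. Whether the SCI effect on Glul differs between whole DRG and sorted cells was not tested. None of the 78 tested genes of the other lists was called by edgeR in any of these 6 comparisons, with 8 to 19 at an unadjusted p under 0.05 and 4 to 13 called by DESeq2.

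Naive sorted cells were also set against uninjured whole DRG to see how much of each gene the sort left behind. Apoe, at chr7:19696109-19699188 (-) on GRCm38, was 3148 to 3539 CPM in whole DRG and 0.391 to 92.1 CPM in naive sorted mice, with a log2 fold change of −5.84 ± 1.29 (SE, adjusted p = 0.00739, edgeR over 18205 genes). Gfap had reads in 1 of 6 naive mice, at 0.228 CPM, and a fitted log2 fold change of −4.08 ± 1.55 (SE, adjusted p = 0.0792, edgeR) that rests on these few reads. Its adjusted p was 0.102 to 0.171 when any of the 4 uninjured mice or naive replicate 1, 3 or 4 was left out. These 2 of 10 genes were called lower and none higher, where 14.4% of all tested genes were called lower. Groups apart downwards were found for 4 of the 10 (Apoe, Glul, Gfap and Slc1a3) and for 35.1% of all tested genes. Glul and Slc1a3 were not called, with log2 fold changes of −0.79 and −1.23 (adjusted p = 0.274 and 0.55, edgeR).

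The remaining genes did not separate sorted cells from whole ganglia. Fabp7 at −1.44, Sox2 at −0.30 and Cdh19 at −0.10 had negative log2 fold changes, and Gja1 at 1.40, Sox10 at 0.69 and Vim at 0.11 positive ones, with adjusted p-values of 0.448 to 0.938 by edgeR. Without the wells low in neuron genes all 10 log2 fold changes were negative and 5 of 10 genes were called lower. In that fit 3180 of all 17860 tested genes were called lower. Glul (−1.58, adjusted p = 0.00293), Cdh19 (−3.13, adjusted p = 0.00724) and Vim (−2.05, adjusted p = 0.0034) joined Apoe and Gfap by edgeR. Over all groups, the medians of Glul, Cdh19 and Vim were 241, 81.1 and 1143 CPM in the 16 wells low in neuron genes. They were 106, 7.02 and 73.7 CPM in the other 50. Leaving out such wells acts on the sorted side only, so these 3 calls depend on the choice of wells. With all naive wells kept, 6 of 10 myelin genes of Schwann cells were called higher in sorted cells than in whole DRG. Strain, dissociation, library kit and cell type all changed together in this comparison and cannot be told apart.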

How the data were processed

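The authors deposited read counts per gene for each library (74 libraries), which are raw counts with no normalization. The submitters' processing notes name cutadapt, STAR 2.5.3a, HTSeq 0.6.1 and mm10, and the strand setting of the counting was not given in the sources used here. The 7 deposited tables of the authors' own comparisons, with fold changes, p-values and 123 per-sample columns, were not used. Lines that name no gene were left out of library sizes; reads without a feature were 10.3 to 12.8% in whole DRG and 3.56 to 24.0% in wells. Of the gene IDs, 53274 matched GENCODE vM21 (GRCm38).

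Genes were kept at a mean count of 10 or more in fits with whole DRG and at 20 or more reads in any mouse among sorted cells, and were tested with edgeR 4.0.16 (TMM, quasi-likelihood F-test, R 4.3.3), and a Benjamini-Hochberg adjusted p under 0.1 was called. The 3 wells of a mouse are technical repeats and were summed, and 2 RUVr factors from residuals entered the fit of the 22 sorted mice. DESeq2 1.42.0 was an alternative, as were other size factors, filters, factors and a replicate block. Fits with naive mice of the same day only, or without some mice or wells, were run too. The fits were tested on simulated data. All 10 genes are named in every comparison, with at most 4 genes of any other list, those of smallest adjusted p, and the 5 genes most and least like the 10 over wells, of which 1 is not reported here. The members and lists were chosen with earlier results of these data known. No 2 libraries of one group or mouse agreed within sampling noise (lowest chi-square per degree of freedom 4.01 over 78 pairs). Mice are the replicates, and each test sets a difference against the spread between them. In sorted cells this is the spread left after the 2 RUVr factors, which were estimated from the same 22 mice. Without these factors the median log2 SE for SNI 1d against naive was 1.42 in place of 1.11. There 0 genes were called in place of 122.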

Additional observations from a re-analysis of the deposited data

Results flagged for a closer look

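Within groups of 4 to 6 mice, 5 of 70 gene and group combinations had a mouse far from the others by Dixon's 95% criterion, which chance gives in about 1 in 20. Apoe was 3186 CPM in whole DRG of SCI 1d replicate 2, against 2765 to 2830 CPM in the other SCI mice. In sorted cells Gja1 was 239 CPM in SNI 3d replicate 3, against 0.658 to 1.52 CPM in the others, and Gfap was 0.228 CPM in naive replicate 2, where the other naive mice had no read. Sox10 was 7.46 CPM in SCI 1d replicate 4, against 65.3 to 90.3 CPM, and Vim was 95.8 CPM in SNI 1d replicate 4, against 530 to 619 CPM.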

How the results depend on the processing

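Of 146 single-gene values under another tool, scaling, filter, factor set, block or choice of wells, 135 kept direction and side of the threshold, 2 lost and 3 gained the call and 6 reversed; with a mouse left out these were 303, 18, 3 and 10 of 334. In whole DRG after SCI, 2 of the 10 genes were called, 0 with a replicate block, 1 at an adjusted p under 0.05 and 0 to 2 with a mouse left out. The last of these counts includes Apoe and Sox10, each called lower in 1 such fit. Under the replicate block Glul and Gfap both had an adjusted p of 0.133 by edgeR, and 127 genes in all were called in place of 408. Deviations of same-numbered mice correlated at −0.226 to 0.334 in whole DRG (median −0.00936) and, within a set of sorted libraries, at −0.0419 to 0.416 (median 0.118). Other pairs of sorted mice had a median of −0.0497. They include pairs across the 2 sets, so these medians do not compare numbers alone. Since not every same-numbered pair was above 0.1 and the labels give the numbers no meaning, same-numbered mice were not taken as pairs. In sorted cells after injury, 0 of 10 genes were called under every alternative run, the replicate block and each mouse left out included, while calls over all genes moved from 122 to between 0 and 1447 for SNI 1d and from 104 to between 0 and 2148 for SNI 3d. Non-overlap of Fabp7 between SNI 1d and naive or SCI 1d mice went from 1 to 0 without wells low in neuron genes, an alternative chosen after seeing the data. For naive sorted cells against whole DRG, 2 genes were called, 1 by DESeq2 (which gave Apoe no adjusted p), 5 without wells low in neuron genes and 1 to 3 with a mouse left out. Without those wells the log2 fold change of Gja1 became −0.21, of Sox10 −0.84 and of Vim −2.05, and that of Cdh19 for SNI 3d against naive 1.33. Cdh19 against whole DRG was 0.01 with DESeq2 and with its size factors. With a mouse left out, values that reversed ranged from −2.24 to 1.76 (Gja1), −0.78 to 0.96 (Sox10), −0.6 to 0.19 (Cdh19) and −0.66 to 0.35 (Vim) against whole DRG, −0.39 to 0.86 for Glul in SCI 3d, and −0.38 to 0.07 (Fabp7) and −0.02 to 0.22 (Cdh19) in whole DRG after SCI. The cause of these shifts was not tested. In the shallowest well 3 reads were 2.01 CPM, which limits Gfap most.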
